A study of Drosophila melanogaster with 3 samples.

Results

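The Enhancer of split complex of Drosophila melanogaster holds 7 basic helix-loop-helix (HLH) genes, E(spl)mdelta-HLH, E(spl)mgamma-HLH, E(spl)mbeta-HLH, E(spl)m3-HLH, E(spl)m5-HLH, E(spl)m7-HLH as well as E(spl)m8-HLH, and where tagged CG16815 bound around them is described here. They were taken by name, as 7 of the 13945 protein-coding genes of the chromosome arms, together with the sequence between the outermost of them and 10 kb on both sides. This window is chr3R:25987621-26051008 of the dm6 genome, 63.4 kb with the start sites of 14 protein-coding genes. The measurements come from chromatin immunoprecipitation sequencing (ChIP-seq) of whole embryos of mixed sex, 0 to 10 hours old, and were deposited as lists of called regions. All 3 biological replicates belong to 1 group and come from a transgenic line that stably expressed CG16815 with GFP at its C terminus, precipitated through the GFP. No second condition and no control library was analysed here, and whole embryos mix every cell type present at those ages.

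The HLH genes of the complex encode transcriptional repressors and are direct targets of the Notch pathway. When Notch is activated its intracellular domain joins the DNA-binding protein Su(H) and the coactivator Mastermind, and the E(spl) proteins then made recruit the corepressor Groucho, encoded by gro at the edge of the complex, and hold down proneural genes such as achaete and scute. This is the step by which a cell chosen as a neural precursor keeps its neighbours from the same fate. Between the HLH genes lie the Bearded family genes, whose small proteins inhibit the ubiquitin ligase Neuralized, and Kaz-m1, which encodes a Kazal-type protease inhibitor. The labels give no function for CG16815.

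The final list, made by the authors from the 3 replicates at a threshold on the irreproducible discovery rate, held 3922 sites, which are called passing sites. A site's position is its summit, the point of highest enrichment, and its strength is given as the authors' signal value and its rank by signal within a list, rank 1 being the strongest. A gene had a site at its promoter when a summit lay within 500 bp of one of its annotated transcription start sites. The replicate lists also hold background, so the 3922 best-ranked summits of each replicate, as many as the final list has, were used where replicates are compared.

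CG16815-GFP had strong sites at the promoters of E(spl)mdelta-HLH, E(spl)m3-HLH and E(spl)m7-HLH in every replicate, and none that passed at the other 4 HLH genes. The window held 10 passing sites in all. The strongest of them, upstream of E(spl)m3-HLH, was the 68th strongest site of the genome. The following sequences are the 101 bases centred on the summits of the 3 HLH promoter sites, of the site in an intron of gro and of the site upstream of the Bearded family gene E(spl)m2-BFM, which the results turn on. They were read from the Release 6 genome in RefSeq, which has dm6 coordinates. Capitals mark the words searched for that were found there, and the words are spelled out further on.
E(spl)m3-HLH site, chr3R:26021345-26021445, plus strand: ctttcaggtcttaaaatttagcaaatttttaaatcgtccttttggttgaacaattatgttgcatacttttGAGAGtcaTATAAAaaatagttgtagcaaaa
E(spl)m7-HLH site, chr3R:26036605-26036705, plus strand: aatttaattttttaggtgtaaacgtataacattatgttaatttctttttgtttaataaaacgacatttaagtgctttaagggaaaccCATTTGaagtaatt
E(spl)mdelta-HLH site, chr3R:25997221-25997321, plus strand: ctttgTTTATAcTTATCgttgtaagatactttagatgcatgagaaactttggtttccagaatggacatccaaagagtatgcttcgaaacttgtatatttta
gro intron site, chr3R:26042461-26042561, plus strand: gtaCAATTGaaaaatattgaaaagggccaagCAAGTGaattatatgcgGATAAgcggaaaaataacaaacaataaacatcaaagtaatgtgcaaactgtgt
E(spl)m2-BFM upstream site, chr3R:26017955-26018055, minus strand: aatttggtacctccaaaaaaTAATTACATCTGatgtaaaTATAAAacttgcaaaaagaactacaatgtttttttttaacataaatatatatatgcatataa

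All 5 are rich in A and T. The E(spl)m3-HLH site holds a TATAAA word and a GAGAG word, the E(spl)m7-HLH site a single E-box, and the E(spl)mdelta-HLH site a GATA core beside a TATAAA word, both read on the opposite strand.

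E(spl)m3-HLH (FBgn0002609, 26021823 to 26023127, plus strand, 1 exon) is 1305 bp long, the longest of the 7. Its passing site ran from 26021135 to 26021657 with the summit at 26021395, 428 bp upstream of the start site, and its signal was 1177.8. The summit lay 420 bp upstream in replicate 1, at rank 85 with a signal of 252.2. Replicate 2 placed it 420 bp upstream too, at rank 73 with a signal of 664.2, and replicate 3 placed it 429 bp upstream, at rank 70 with a signal of 262.9. The 3 replicates thus gave it nearly the same place and rank. It was the widest passing site of the window, at 523 bp, and lay 319 bp upstream of a noncoding gene, lncRNA:CR43644, which starts between the site and the next one upstream. Replicate 3 alone had a further summit 220 bp upstream of E(spl)m3-HLH, at rank 1703.

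E(spl)m7-HLH (FBgn0002633, 26037038 to 26038019, plus strand, 1 exon) had a passing summit at 26036655, 383 bp upstream of its start site, with a signal of 703.9 and rank 253. Its rank was 399 in replicate 1, 368 in replicate 2 and 91 in replicate 3, with signals of 126.1, 336.9 and 245.2. Replicate 3 placed it far above the other 2. A weaker second summit lay nearer the gene, 222 bp upstream in replicate 1 at rank 1124 and 200 bp upstream in replicate 3 at rank 693. The pooled list had it 179 bp upstream with a signal of 120.3 and rank 4081, just under the lowest signal that passed, 124.8. Replicate 2 had no second summit there.

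E(spl)mdelta-HLH (FBgn0002734, 25997621 to 25998633, plus strand, 1 exon), the outermost gene, had a passing summit at 25997271, 350 bp upstream, with a signal of 618.2 and rank 336. Its rank was 491 in replicate 1, 373 in replicate 2 and 248 in replicate 3, with signals of 111.7, 334.6 and 161.4. The order of the replicates was that seen at E(spl)m7-HLH, with replicate 3 the highest in rank. This summit lies between divergent genes and is 275 bp upstream of CG43116, so it is nearer to that gene's start than to that of E(spl)mdelta-HLH. A neighbouring site in an intron of CG43116, 399 bp inside that gene, had a signal of 728.8 and rank 231, and stood at rank 431, 405 and 47 in replicates 1, 2 and 3.

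E(spl)m8-HLH (FBgn0000591, 26040240 to 26041008, plus strand, 1 exon), the gene altered in the classical E(spl)D allele, had no passing summit at its promoter. The nearest was 1362 bp downstream of its start site, beyond its end and before gro. Only replicate 3 had summits at its start, 118 bp upstream at rank 7267 with a signal of 22.7 and 129 bp downstream at rank 7982. E(spl)mbeta-HLH (FBgn0002733, 26005046 to 26006023, minus strand, 1 exon) had its nearest passing summit 3112 bp upstream. Within 500 bp it had a summit in replicate 3 alone, 268 bp downstream at rank 5702 with a signal of 25.4. Both genes therefore had only weak calls at the start site, from a single replicate.

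E(spl)mgamma-HLH (FBgn0002735, 25999851 to 26000761, plus strand, 1 exon), whose reporters mark Notch activity in larval neural stem cells, had no summit within 500 bp in any list. Its nearest passing summit was the E(spl)mdelta-HLH site, 2580 bp upstream, and replicate 2 had a weak summit 647 bp upstream at rank 13896. E(spl)m5-HLH (FBgn0002631, 26028854 to 26029735, minus strand, 1 exon) was the farthest from any passing summit, 6920 bp upstream at the E(spl)m7-HLH site. In replicates 1 and 2 its nearest summit was that same site, and replicate 3 had a summit 2184 bp downstream of its start at rank 3980.

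**Figure D1:**
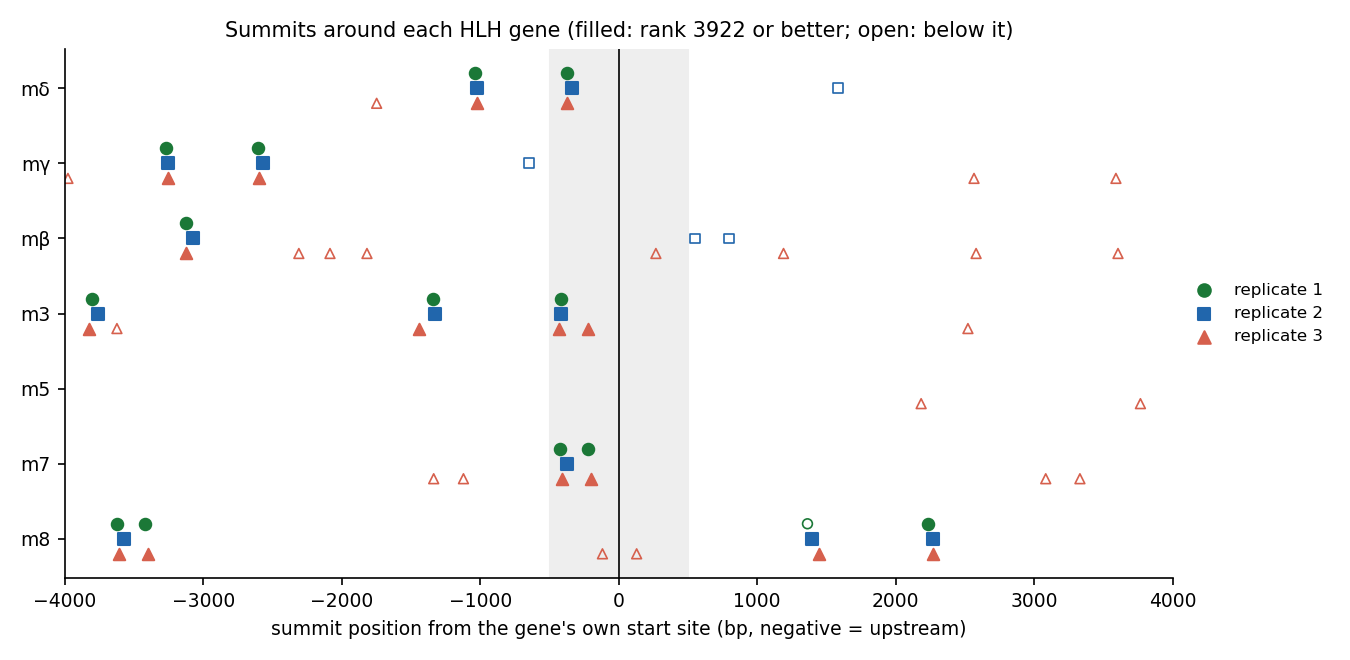
Position of every called summit within 4000 bp of the start site of each HLH gene (x axis, bp, negative is upstream), by replicate. Filled marks rank 3922 or better in their own list and open marks rank below it; the grey band is 500 bp on both sides. Filled marks fall in the band at mδ, m3 and m7 in all 3 replicates and at no other gene, while mβ and m8 have open marks from replicate 3.

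By count, 3 of the 7 HLH genes (42.9%, exact 95% binomial interval 9.90 to 81.6) had a passing site at the promoter, where 15.9% of all protein-coding genes did. With so few genes the interval holds that background share. The count among each replicate's 3922 best-ranked summits was 3 in every one, the same 3 genes each time (mean 3.00, SD 0, n = 3), against a background of 14.3% in replicate 1, 16.5% in replicate 2 and 14.3% in replicate 3. Over whole lists, where background summits enter, replicates 1 and 2 and the pooled list again had those 3 genes, with 32.8%, 36.2% and 32.2% of all genes. The whole list of replicate 3 had 5 of 7 (71.4%, 29.0 to 96.3), adding E(spl)mbeta-HLH and E(spl)m8-HLH, where 38.5% of all genes had one.

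The 3 promoter summits lay 350 to 428 bp upstream, farther out than was usual. Over the 2220 protein-coding genes with a passing site at the promoter the median summit was at -151 bp and the quartiles were at -232 and -89. Each HLH gene has 1 annotated start site, whereas the 2220 include genes with more, such as gro, where a summit can lie nearer to one of them. Only 118 of the 2220 (5.32%) had the summit in the range spanned by the 3 HLH genes, and 494 (22.3%) had it 250 to 500 bp upstream. With a promoter limit of 250 bp, no HLH gene had a passing site. If each summit was given to its nearest start site of any gene, only E(spl)m7-HLH kept one, because the noncoding gene and CG43116 lie nearer to the other 2 summits.

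The rest of the window was described next, site by site along the chromosome. Between E(spl)mbeta-HLH and the Bearded family gene E(spl)malpha-BFM a summit at 26009135, 1758 bp upstream of the latter, had a signal of 323.7 and rank 1093, with ranks of 1067, 1102 and 1420 in replicates 1 to 3. The weakest passing site of the window, at 26013039 and 1682 bp upstream of Kaz-m1, had a signal of 165.4 and rank 2846, and its replicate ranks were 2314, 3527 and 3006. These 2 sites lay far from any start of a coding gene. A summit at 26018005, 535 bp upstream of E(spl)m2-BFM and thus just beyond the promoter limit, was much stronger, with a signal of 607.1 and rank 346. Its rank was 779 in replicate 1, 412 in replicate 2 and 141 in replicate 3. A further site 1367 bp upstream of E(spl)m3-HLH, at 26020456, had a signal of 216.3 and rank 1991.

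At gro, which encodes the corepressor of the HLH proteins, 2 sites passed. The one at 26041602, 134 bp upstream of its first start site, was weak, with a signal of 185.9 and rank 2439, and was the only passing site of the window outside the best-ranked 3922 of a replicate, at rank 4959 in replicate 1. The other, at 26042511 in an intron and 130 bp upstream of a later start site, had a signal of 696.6 and rank 264, with ranks of 334, 238 and 309. The strong site at gro was thus as highly ranked as those of E(spl)mdelta-HLH and E(spl)m7-HLH.

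**Figure D2:**
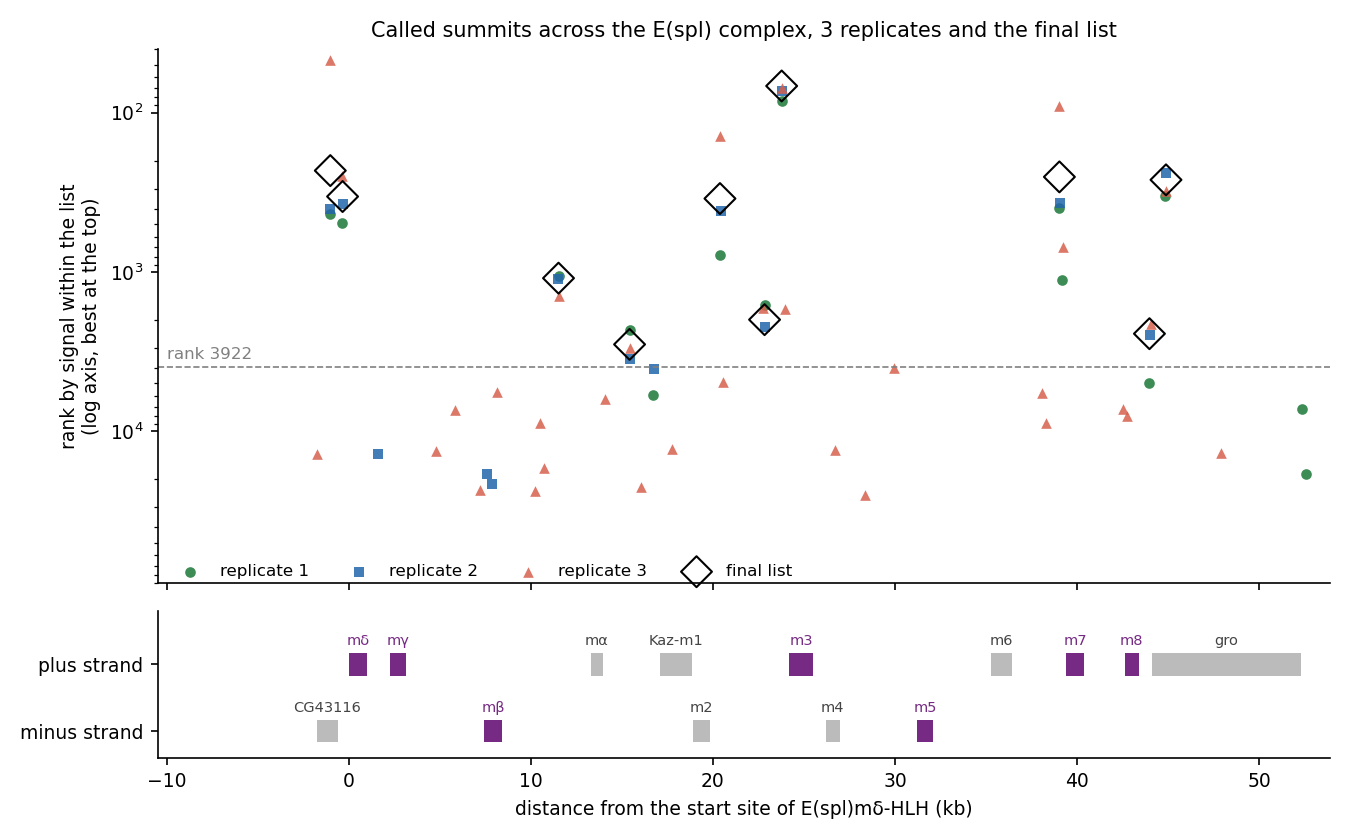
Rank by signal (y axis, log scale, best at the top) of every called summit of the window in the 3 replicate lists and the final list, by distance from the start site of E(spl)mδ-HLH in kb; genes are drawn below by strand, HLH genes in purple. The final list has sites around m3, m7, mδ and gro, and a gap of 15260 bp between the m3 and m7 sites in which only replicate 3 has marks.

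**Figure D3:**
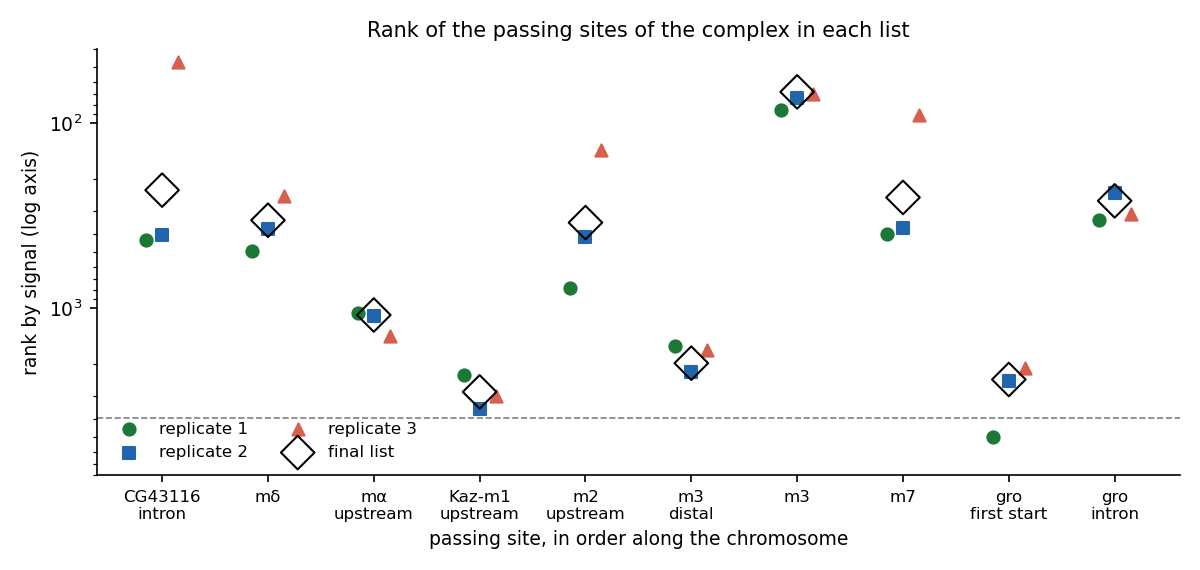
Rank by signal (y axis, log scale) of the 10 passing sites in each replicate and in the final list, in order along the chromosome. The m3 site is between rank 68 and 85 in every list, with replicate 3 slightly the highest of the replicates. The CG43116 intron, mδ, m2, m7 and first gro sites also rank higher in replicate 3 than in the other 2. The first gro site falls below rank 3922 (dashed line) in replicate 1.

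All 10 passing sites had a summit within 150 bp in all 3 replicates, as did 3416 of the 3922 sites of the genome (87.1%), and 9 of the 10 were among the best-ranked 3922 of all 3, as were 2230 (56.9%) of all. The median signal was 613 in the window and 218 in the final list. Of the 10, 7 were among the 1961 strongest sites of the final list and 6 among the 392 strongest. By place in the final list, 8 were intergenic, 2 in introns and 0 in an exon or UTR, and 6 lay within 500 bp of a coding gene's start site. Replicate summits could fall elsewhere. Replicates 1 and 2 had that of the site at 26020456 in an exon of lncRNA:CR43644. Replicate 2 had that of the E(spl)m2-BFM upstream site in an exon of another noncoding gene, lncRNA:CR43643. None of the 10 lay over the short, single-exon body of an HLH gene, and the 2 within genes, in introns of CG43116 and gro, were among the stronger sites.

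The sites were not spread evenly. Between the summits of E(spl)m3-HLH and E(spl)m7-HLH ran 15260 bp with no summit in the final or pooled list or in replicates 1 and 2, a stretch that holds the body of E(spl)m3-HLH and all of E(spl)m4-BFM, E(spl)m5-HLH and E(spl)m6-BFM. Replicate 3 had 6 summits inside it, of which 1 was among its best-ranked 3922, the second E(spl)m3-HLH summit. The second longest gap, of 11864 bp, ran from the E(spl)mdelta-HLH site past E(spl)mgamma-HLH and E(spl)mbeta-HLH to the site upstream of E(spl)malpha-BFM. The shortest was 674 bp, between the CG43116 intron and the E(spl)mdelta-HLH site. The median gap was 3904 bp in the window and 12121 bp over 3R.

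The 10 passing summits (exact 95% Poisson interval 4.80 to 18.4) compare with 1.84 expected at the density of the rest of 3R. The density was 158 per Mb in the window and 29.0 per Mb on the rest of 3R, a ratio of 5.44 (2.61 to 10.00). Among the best-ranked 3922 of each replicate the ratio was 5.51, 5.47 and 6.77 (5.92 ± 0.739, SD, n = 3), from 10, 10 and 12 summits (10.7 ± 1.15). Replicates thus put the density of strong summits several-fold above that of the arm. The 12 of replicate 3 include second summits at E(spl)m3-HLH and E(spl)m7-HLH, and the 10 of replicate 1 include a second summit at E(spl)m7-HLH. These counts are therefore of summits and not of separate sites. Of 2088 consecutive windows of the same length, 15 (0.718%) held 10 or more passing summits. The median window held 1, the highest 17, and 767 held 0. The window was chosen for its genes, so this is a description, and its relation to gene density was not tested.

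**Figure D4:**
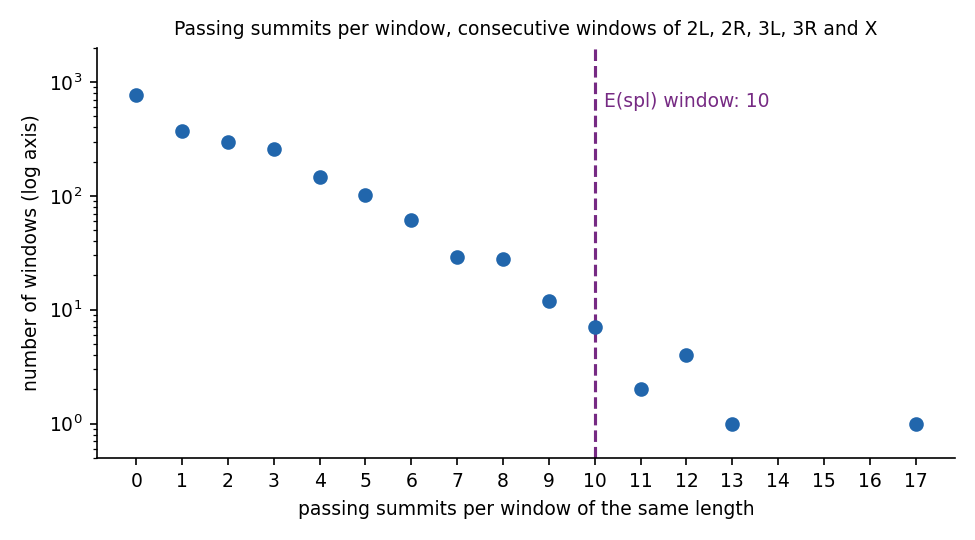
Number of windows (y axis, log scale) by passing summits per window (x axis), over 2088 consecutive windows as long as the E(spl) window; counts that no window had are not drawn. The dashed line marks the 10 of the E(spl) window, which 15 windows reached or exceeded.

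Over whole lists the replicates differed. Replicate 1 had 14 summits in the window, 0.895 times the density of the rest of 3R (0.489 to 1.5), and replicate 2 had 14, 1.31 times (0.716 to 2.20). Replicate 3 had 32, 2.52 times (1.73 to 3.56). The mean was 20.0 ± 10.4 summits (SD, n = 3), and only in replicate 3 did the interval of the ratio lie wholly above 1. These intervals, like that of the passing summits, cover counting error only and treat summits as independent. Called summits can lie close together, so the intervals may be too narrow. Of its 32 summits, 20 had no summit of another replicate within 150 bp, or 62.5%, close to the 61.5% of its whole list. In replicate 1 it was 2 of 14 (14.3%), where its whole list had 63.1%, and in replicate 2 it was 3 of 14 (21.4%), where its whole list had 45.6%. The share in replicate 3 was thus usual for that list. These 20 were weak, with a median rank of 10889. Of them, 1 was among the best-ranked 3922, 2 had a q under 0.05 and 6 lay inside annotated genes. What sets the 3 counts apart was not tested.

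The other genes of the complex and the pathway were counted in the same way, beside the 15.9% of all protein-coding genes. The 5 other genes of the complex, E(spl)malpha-BFM, E(spl)m2-BFM, E(spl)m4-BFM, E(spl)m6-BFM and Kaz-m1, had 0 with a passing site at the promoter and 0 in the best-ranked 3922 of each replicate. The pooled list had a summit 279 bp upstream of Kaz-m1 that did not pass, at rank 5092. Among hry, dpn, Hey, Hesr and Sidpn, which encode related repressors, and gro, only gro had one, and Hesr had a summit at rank 3739 in replicate 3. Of the 4 Bearded family genes outside the complex that were found in the annotation, Brd, Tom, Ocho and BobA, 0 had a passing site, and Brd had a summit at rank 2321 in replicate 3.

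Of 23 Notch pathway genes, 5 (21.7%) had a passing site at the promoter, while 15.9% of all genes had one. Among the best-ranked 3922 summits the count was 4 in replicate 1 (17.4%, background 14.3%), 5 in replicate 2 (21.7%, background 16.5%) and 8 in replicate 3 (34.8%, background 14.3%). With so few genes, the share was near that of all genes in the final list and in replicates 1 and 2. Only in replicate 3 was it well above, and the difference was not tested. The highest was numb, which encodes an inhibitor of Notch inherited unequally by the daughters of a neural precursor, with a signal of 756.6 and rank 214 (ranks 283, 226 and 147 in the replicates). Next were aph-1, a subunit of the gamma-secretase that cuts Notch, with a signal of 556.8 and rank 407, and mam, which encodes Mastermind, with 227.4 and rank 1856. The acetyltransferase gene nej followed, with a signal of 209.5 and rank 2078. The fifth, neur, which encodes the ubiquitin ligase Neuralized, had a signal of 192.4 and rank 2327 and no summit in replicate 1. The receptor gene N, the ligand genes Delta and Ser and the DNA-binding factor gene Su(H) had none that passed. Among the 8 genes counted in replicate 3 were Su(H), dx and Bx42, at ranks 2748, 2241 and 3113, which had no passing site. Of 10 proneural genes and partners, da, whose protein pairs with the proneural factors, had one, with a signal of 152.2 and rank 3149.

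Short sequence words were searched on both strands, in the 101 bases around each summit and in promoters from 500 bp upstream to 50 bp downstream of a start site. For Su(H) the word was GTGGGAA or a common variant of it, GTGAGAA. The E-box, bound by HLH proteins in general, was CANNTG. Its proneural form, GCAGCTG or else the related word GCAGGTG, contains an E-box, and the N-box, known as a target of the E(spl) proteins, was CACNAG. The GATA core was GATAA and the core bound by many homeodomain proteins was TAATTA. The DRE was the word TATCGATA, the GAGA word was GAGAG, the TATA box was TATAAA and the word of the early activator Zelda was CAGGTA. Around the 10 summits, E-boxes were in 5, TATAAA in 4, and the GATA core and TAATTA in 3 each. Among all passing sites the shares were 33.0%, 24.9%, 24.2% and 11.0%, and among pooled regions that did not pass 40.7%, 14.5%, 18.7% and 7.11%. A GAGAG word was at 1 summit, that of E(spl)m3-HLH, and was at 8.41% of passing sites. The Su(H) words, the proneural E-boxes, the N-box, the DRE and the Zelda word were at 0 of the 10, and at 2.04%, 1.05%, 9.0%, 0.943% and 1.94% of all passing sites.

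In the promoters the Su(H) words divided the HLH genes as the sites did, but the other way round. This was noticed after the data were examined and is a description only. They were in the promoters of E(spl)mgamma-HLH with 3, E(spl)m5-HLH and E(spl)m8-HLH with 2 each and E(spl)mbeta-HLH with 1, the 4 genes with no passing site, and in 0 of the 3 with one. Over all promoters they were in 11.3%, and in 12.7% of those with a passing site, so the genome as a whole did not show such a division. A wider word, GTGNGAA, was in the same 4 HLH promoters and in 23.7% of all. That these letters were not found at E(spl)mdelta-HLH, E(spl)m3-HLH and E(spl)m7-HLH says nothing of whether Su(H) binds there. The following stretches hold the words, in capitals, each read 5′ to 3′ along the gene's own strand.
E(spl)m8-HLH promoter, chr3R:26040001-26040101, plus strand: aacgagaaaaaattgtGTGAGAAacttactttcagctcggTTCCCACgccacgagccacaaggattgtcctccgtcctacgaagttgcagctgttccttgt
E(spl)mgamma-HLH promoter, chr3R:25999542-25999642, plus strand: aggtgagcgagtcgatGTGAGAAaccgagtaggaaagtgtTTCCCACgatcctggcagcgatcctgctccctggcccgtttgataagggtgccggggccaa
E(spl)mbeta-HLH promoter, chr3R:26006255-26006355, minus strand: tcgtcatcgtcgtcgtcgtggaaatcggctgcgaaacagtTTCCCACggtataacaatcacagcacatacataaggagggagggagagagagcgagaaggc
E(spl)m5-HLH promoter, chr3R:26029821-26029921, minus strand: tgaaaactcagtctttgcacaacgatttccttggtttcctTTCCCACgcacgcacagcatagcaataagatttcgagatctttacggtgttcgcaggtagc

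In E(spl)m8-HLH and E(spl)mgamma-HLH the words form an inverted pair, GTGAGAA followed by TTCCCAC, the complement of GTGGGAA, with 17 bases between them. The pair begins 223 bp upstream of the start site in E(spl)m8-HLH and 293 bp upstream in E(spl)mgamma-HLH. A pair of this orientation and spacing was in 3 of the 13945 promoters (0.0215%), these included. The other promoters shown have a single word in the stretch.

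A proneural E-box was in the promoters of E(spl)m7-HLH, E(spl)mgamma-HLH and E(spl)m8-HLH, with 2 in each, and in 15.9% of all promoters. An E-box of any kind was in 6 of the 7, as in 92.9% of all, E(spl)m3-HLH being the one without. TATAAA was in 6 of 7, E(spl)mgamma-HLH being the one without, and in 63.5% of all. Its count did divide the genes, again noticed after the data were examined: E(spl)mdelta-HLH and E(spl)m3-HLH had 4 each and E(spl)m7-HLH had 2, whereas the 4 genes with no passing site had 0 or 1. Over all coding genes, 2 or more were in 36.6% of promoters with a site and 32.9% of those without. Close to the start site the word did not divide the HLH genes. It lay 25 bp upstream in E(spl)m3-HLH and 34 bp in E(spl)m7-HLH. In E(spl)mbeta-HLH, E(spl)m5-HLH and E(spl)m8-HLH it lay 30, 32 and 43 bp upstream. All other copies, including every copy in E(spl)mdelta-HLH, lay 288 to 471 bp upstream.

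Base composition also differed between the HLH genes with and without a site, again noticed after the data were examined. The 10 summits of the window had a median G+C content of 26.7% over 101 bases, from 19.8% at the E(spl)m2-BFM site to 31.7%, where the median was 30.7% over all passing sites and 39.6% over pooled regions that did not pass. The window as a whole was 44.4% G+C and 3R 42.6%, so the sites lay in its A+T-rich stretches. The promoters with a site had 40.4% G+C at E(spl)mdelta-HLH, 40.5% at E(spl)m7-HLH and 42.9% at E(spl)m3-HLH. Those of E(spl)m5-HLH, E(spl)m8-HLH, E(spl)mgamma-HLH and E(spl)mbeta-HLH had 47.1%, 50%, 55.3% and 55.5%. These groups do not overlap, whereas over all coding genes the medians were nearly the same, 38.3% with a site and 38.9% without. The quartiles over all coding genes were 34.4% and 42.0% with a site, and 34.5% and 44.0% without. All HLH promoters with a site thus lay below the upper quartile of genes without one. The HLH promoters without a site lay above both upper quartiles. Each HLH promoter with a site includes the A+T-rich bases around its summit, so its G+C content is in part that of the site.

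The 101 bases lowest in G+C within each promoter set the groups further apart. Their G+C content was 15.8% in E(spl)mdelta-HLH, centred 416 bp upstream, and 18.8% in both E(spl)m3-HLH and E(spl)m7-HLH, centred 335 and 427 bp upstream. It was 34.7% in E(spl)m5-HLH, 39.6% in E(spl)m8-HLH, 42.6% in E(spl)mbeta-HLH and 43.6% in E(spl)mgamma-HLH. In E(spl)mdelta-HLH, E(spl)m3-HLH and E(spl)m7-HLH these stretches lay inside the called region of the passing site. There they are in part the site measured again, and not a separate trait of the promoter. Over all coding genes the medians were 20.8% with a site and 23.8% without. A stretch at or below 18.8% was in 38.3% of promoters with a site and in 23.6% of those without, and one whose lowest stretch was at or above 34.7% in 5.99% and 12.4%. An A+T-rich stretch of this kind was therefore common in promoters with no site too. In these 7 genes the site, the Su(H) words, the count of TATAAA and base composition go together and cannot be told apart. Base composition and the count of TATAAA are also in part read from the bases of the site itself.

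**Figure D5:**
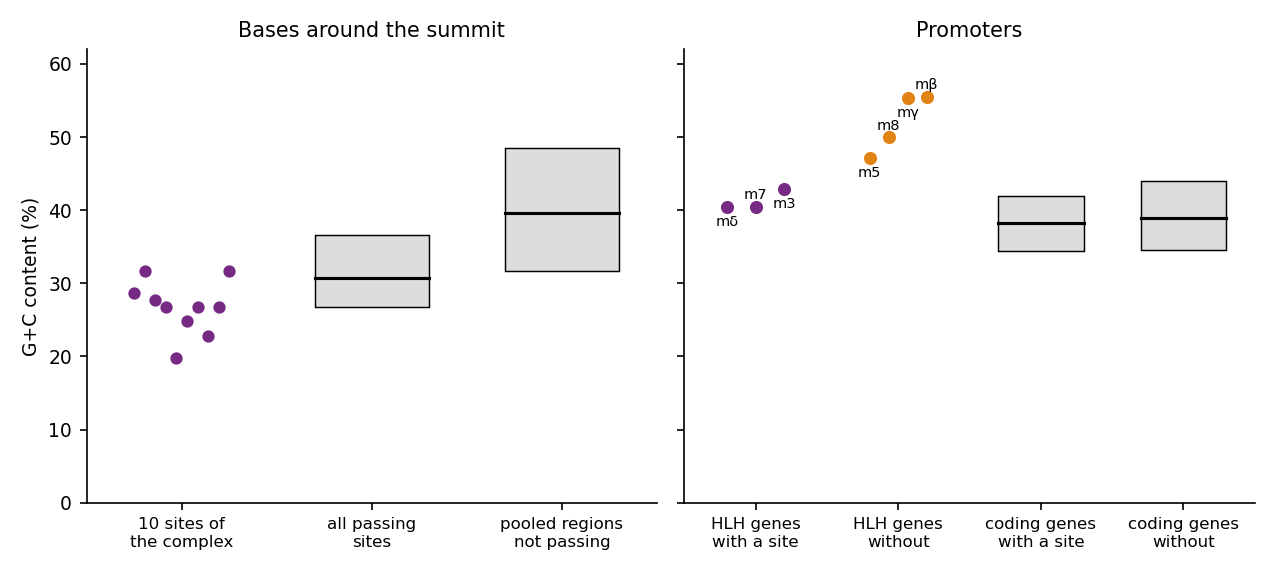
G+C content (y axis, %) of the 101 bases around the 10 summits of the window, beside boxes of the quartiles (line, median) for all passing sites and for pooled regions that did not pass (left), and of HLH promoters with and without a passing site, beside the same boxes for all coding genes (right). The 10 summits lie between 19.8% and 31.7%, and the 3 HLH promoters with a site, from 40.4% to 42.9%, lie below the 4 without, from 47.1% to 55.5%.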

How the data were processed

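Regions were deposited as lists for each replicate, for the 3 replicates pooled, and after the authors' threshold on the irreproducible discovery rate. The signal of each region is the authors' deposited value, of a normalisation that is not stated, and was used as rank between lists. The deposited -log10 q-values served to count regions with a q under 0.05. Each relaxed list, per the README deposited beside it, derives from an alignment and 1 further file of unstated nature; the sources used here name no aligner, caller or threshold. Depth is unknown, and intervals cover counting error only. Per the labels, replicates are biological; nothing more is stated of their origin. The 5 lists on dm3 were not used.

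The final list held exactly the 3922 pooled regions of highest signal. Of the lists, replicate 1 had 30000 regions, replicate 2 had 21989, replicate 3 had 27358 and the pool 18764. Summits were compared with the Ensembl release 115 annotation (BDGP 6.54) and the Release 6 genome in Python 3.11.15 with pandas 2.3.3, numpy 2.4.6 and scipy 1.17.1. Intervals are exact (95%). The scripts were tested on simulated data. With 1 group there is no test between conditions, and no list was tested. Genes named by rule are the 7 HLH genes, the other genes and passing sites of the window, and up to 4 bound members of each list with the highest signal. Outside that rule, neur was named after its values were seen, and list members with no passing site, such as Hesr, Brd and Su(H), were named too. Names were updated to the annotation, and BobB and BobC matched no gene. The members, lists and words were chosen with earlier results of these data known. Alternatives were other promoter limits, flanks, rank limits, distances for a shared summit, and leaving out each replicate.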

Additional observations from a re-analysis of the deposited data

How the results depend on the processing

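Of 38 alternative values for 8 results, 32 kept the value within the limits set, 6 moved and 0 reversed. The limits were wide: 7 passing summits in the window among the 1961 strongest sites, in place of 10, counted as kept. The 38 include 1 alternative added after the data were examined, which also counted as kept. Passing summits in the window numbered 6 with no flank in place of 10, since the sites of gro, of E(spl)mdelta-HLH and in CG43116 lie in the flanks. HLH genes with a passing site at the promoter numbered 0 with a promoter limit of 250 bp, and 1 with each summit given to its nearest start site only (2 with protein-coding start sites only, an alternative added after the data were examined), in place of 3. With the limit of 250 bp the mean over replicates was 1.00 in place of 3.00. With the best-ranked 1961 of each replicate the mean count in the window was 8.67 in place of 10.7. GATA cores were at 5 summits within 100 bp in place of 3 within 50 bp. Leaving out each replicate in turn gave 10 to 10 sites found in all replicates, 10.0 to 11.0 best-ranked summits in the window, 3.00 to 3.00 HLH genes, and 14.0 to 23.0 called summits in place of 20.0, the lowest without replicate 3. The density ratio ranged from 4.32 to 8.07, in place of 5.44. No paired analysis was possible because the samples form 1 group. The 7 genes, 3 replicates and unknown depth limit these descriptions: a promoter with no summit had none called at this depth, and signal cannot be compared between lists except by rank.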
